A study of Homo sapiens with 6 samples.

Results

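The genes described here are the nuclear genes for the subunits of oxidative phosphorylation: NADH dehydrogenase (complex I), succinate dehydrogenase (complex II), the cytochrome bc1 complex (complex III), cytochrome c oxidase (complex IV) and ATP synthase (complex V). They were chosen by symbol alone, as the symbols beginning NDUF with a subunit letter and number, SDHA to SDHD, UQCR, COX4I to COX8 and ATP5, and CYC1. After 95 pseudogene symbols were dropped, 88 of the 61155 symbols in the count table remained: 37 for complex I, 4 for complex II, 10 for complex III, 18 for complex IV and 19 for complex V. NDUFA4, which carries a complex I name, was placed with complex IV, where its product is now assigned. The RNA came from MDA-MB-231, an established triple-negative breast cancer line of mesenchymal character, as 3 control libraries and 3 libraries in which VASP, an actin-binding protein that promotes filament elongation, was knocked down. The titles call the groups plko, the name of an empty hairpin vector, and shVASP, whereas the characteristics and protocol speak of siRNAs (negative control or VASP) given with Lipofectamine and of harvest at 48 hours. Which reagent was used cannot be told from the labels, and no other treatment separates the groups. The control columns share 1 stem in their names, so it is not known whether they are separate cultures, and p-values measure the spread between these libraries.

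Oxidative phosphorylation passes electrons from NADH and succinate through complexes I to IV to oxygen and uses the proton gradient built on the way to drive ATP synthase. Complexes I, III, IV and V are mosaics of subunits encoded in the nucleus and in mitochondrial DNA, whereas complex II is nuclear throughout. The nuclear subunit genes are transcribed in most cells, and NRF1, the ETS factor GABP and YY1 are known to act at many of their promoters.

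The libraries held between 28856610 and 30055503 counted fragments, of which the 88 genes took between 0.572% and 0.607%. VASP itself was counted 4544, 5036 and 4708 times in controls, against 396, 379 and 360 times after knockdown, a log2 fold change of -3.69. VIM, at 1592 to 1721 CPM (counts scaled to the size of the library), CD44, AXL, CAV1 and FN1 were all present. ESR1 was at most 0.832 CPM, PGR at most 0.1003 CPM and CDH1 at most 0.104 CPM. EPCAM lay between 4.69 and 6.57 CPM and ERBB2 between 95.4 and 109 CPM. The summed markers of immune cells were between 1.52 and 3.08 CPM, those of endothelial cells between 1.90 and 3.24 CPM and those of fibroblasts between 5.75 and 6.97 CPM. Most of each sum came from a single gene, CD14 (1.483 to 2.98 CPM), PECAM1 (1.724 to 3.111 CPM) and COL1A1 (5.509 to 6.515 CPM). DCN was at 0 in every library. In RNA from whole cultures, fewer cells that express a gene and less of its RNA per cell cannot be told apart.

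Most subunit mRNAs stayed close to their control level after VASP knockdown, and those that passed the test moved in both directions by small amounts. Of the 88 genes, 78 had enough counts to be tested, and with edgeR's quasi-likelihood test at an adjusted p of 0.05, 13 rose and 9 fell. That is 28.2% of the tested genes, beside 37.2% of the 16633 genes tested in all, where 18.9% rose and 18.3% fell. The median log2 fold change of the 78 genes was 0.04, and over all genes it was -0.01. The median size of the log2 fold change, sign left aside, was 0.09 for the subunits and 0.19 for all genes, and the subunits ranged from -0.43 for NDUFA13 to 0.33 for NDUFA5. The control and knockdown libraries did not overlap for 27 of the 78 genes (34.6%), beside 47.6% of all genes tested. When the test asked for a change of over 1.2-fold, none of the 78 passed, while 5.73% of all genes did; at an unadjusted p of 0.05, 2 subunits passed, NDUFA5 and NDUFA13.

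Of the 22 genes past the threshold, 7 kept their call whichever single library was left out: NDUFA5, SDHD, UQCRB and ATP5PB rose, and CYC1, UQCRC1 and ATP5F1A fell. DESeq2, on the same libraries, kept 13 of the 22 calls, these 7 among them. Fold changes in these libraries ran with the GC content of the transcripts, and when the trend with GC content and transcript length was removed from each library, 4 of the 7 kept their call: NDUFA5, SDHD, ATP5PB and ATP5F1A. With that correction 12 subunits rose and 1 fell, beside 17% and 11.9% of all genes (29% together).

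**Figure D1:**
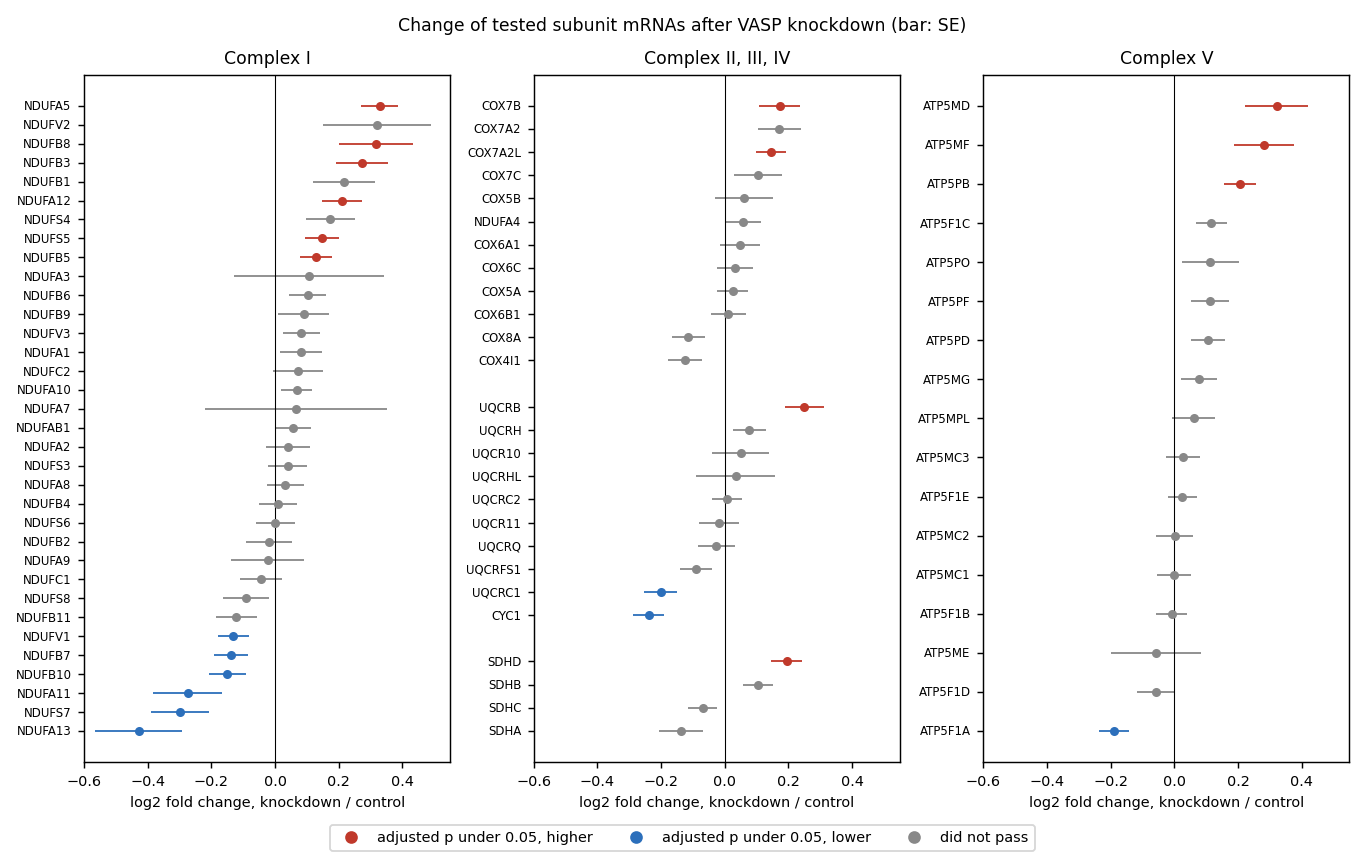
Log2 fold change (knockdown over control) with its standard error for the tested subunit mRNAs drawn, by complex and ordered by size; coloured points passed an adjusted p of 0.05 and grey ones did not. Of the 22 coloured points 13 lie above 0 and 9 below, and every point lies between -0.43 and 0.33.

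Promoter sequence is shown for genes that rose, fell or did not pass, since regulators of this gene set are known by the letters they bind. RefSeq promoters (GRCh38.p14, 250 bases before to 50 after the start) matched 71 of the 88 genes by symbol and were searched on both strands. The NRF1 site GCGCATGC was in 13 of the 71 (18.3%) and in 3.27% of all 27305 promoters of the table; the longer palindromic NRF1 core, which adds GC to its end, was in 4 (5.63%) and 1.36%. The ETS letters CCGGAAGT, bound by GABP among others, were in 10 (14.1%) and 4.44%, and the YY1 motif, spelled out in the windows of NDUFS7 and UQCRC1, in 7 (9.86%) and 1.28%. The GC box GGGCGG was in 43 (60.6%) and 44.6%. The windows below are 30 bases long, read 5′ to 3′ on the gene's strand, with the motif in capitals; a motif found on the other strand appears as its reverse complement.
SDHD, which rose, NRF1 site, chr11:112086752-112086781, plus strand: cagctgtgtttGCGCATGCgcgacgggtgt
SDHD, ETS letters, chr11:112086784-112086813, plus strand: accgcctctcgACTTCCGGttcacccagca
ATP5MD, which rose, ETS letters, chr10:103396617-103396646, minus strand: gtgcaattcttCCGGAAGTgtgggcgggct
NDUFS7, which fell, NRF1 site, chr19:1383823-1383852, plus strand: ttccggtttccGCATGCGCtccgagccgct
NDUFS7, YY1 letters, chr19:1383914-1383943, plus strand: ggccgaggccAAGATGGCGGtgctgtcagg
UQCRC1, which fell, YY1 letters, chr3:48609604-48609633, minus strand: ctgcagctggAAGATGGCGGcgtccgtggt
NDUFA13, which fell, ETS letters, chr19:19516204-19516233, plus strand: tccgcccgggaCCGGAAGTgtgggatactg
ATP5F1C, with no call, NRF1 site, chr10:7788144-7788173, plus strand: ggggagcttcgGCGCATGCgcgctgaggcc
The NRF1 site and the ETS letters were found in genes that rose, genes that fell and genes with no call, and the YY1 motif in genes of the latter groups; its windows shown here lie after the annotated start. Of the 9 genes with a promoter that rose, 1 held the NRF1 site, 2 the ETS letters and none the YY1 letters; of the 9 that fell, 1 held the NRF1 site, 1 the ETS letters and 2 the YY1 letters. A match describes the letters and is not a measured binding site.

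In complex I, which oxidises NADH, 6 of 35 tested genes rose and 6 fell, with a median log2 fold change of 0.06. That is 34.3% called, beside 37.2% of all genes tested. The called share was 16.7% to 30% in the other complexes. The core subunits carry the flavin and the iron-sulfur clusters that lead electrons from NADH to ubiquinone. Of the 7 core genes, 6 were tested, none rose and 2 fell, NDUFS7 and NDUFV1. NDUFS7, whose product holds the last cluster before ubiquinone, was at 13.3, 14.1 and 14.3 CPM in the controls and at 13.1, 10.7 and 10.1 CPM after knockdown. Its first knockdown library lay just under the lowest control and the other two further below (log2 fold change -0.30, SE 0.09, adjusted p = 0.0117). The promoter of NDUFS7 is among the windows shown above; 54.7% of its coding bases lie in exons of other symbols, whose shared fragments were not counted. NDUFV1, the flavin-binding subunit where NADH is oxidised, was at 120, 132 and 125 CPM in the controls and at 115, 114 and 116 CPM after knockdown. The groups did not overlap, and the difference was small (-0.13 in log2, SE 0.05, edgeR adjusted p = 0.0356). The NDUFS7 call was lost without knockdown library 2 (adjusted p = 0.0743), knockdown library 3 (0.0796) or control library 2 (0.0556), and the NDUFV1 call without control library 2 (0.168) or any 1 knockdown library (0.0808 to 0.133). With the GC and length correction NDUFS7 stood at -0.06 (adjusted p = 0.621) and NDUFV1 at 0.01 (0.88).

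Among the core genes that did not pass, NDUFS3, a subunit of the matrix arm, had a log2 fold change of 0.04. NDUFS8, a carrier of iron-sulfur clusters, had -0.09 and was spread from 82.7 to 106 CPM among the knockdown libraries. NDUFV2 had 0.32 with an SE of 0.17 and rested on 45 to 68 counts per library, and 91.2% of its coding bases are shared with another symbol. NDUFS1, the largest core subunit, had 0 counts in all 6 libraries; its symbol is also annotated on a further sequence, as described with the levels.

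Among the accessory subunits of complex I, which surround the core and are needed for its assembly and stability, NDUFA5 had the smallest adjusted p. NDUFA5 was at 33.3, 32.3 and 32.04 CPM in the controls and at 38.4, 42.7 and 41.6 CPM after knockdown. All 3 knockdown libraries lay above all 3 controls, and its mean went from 32.6 ± 0.642 (SD, n = 3) to 40.9 ± 2.21 CPM, a log2 fold change of 0.33 (SE 0.06, adjusted p = 0.000107 by edgeR). NDUFA5 (chr7:123536997-123557904, minus strand) lies in the matrix arm, and its log2 fold change was 0.20 with the GC and length correction (adjusted p = 0.014).

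NDUFA12, which caps the matrix arm late in assembly, was at 43.5, 39.3 and 38.4 CPM and then at 45.4, 50.5 and 44.3 CPM, without overlap (log2 fold change 0.21, SE 0.06, adjusted p = 0.00984 by edgeR). NDUFB3, a subunit of the distal membrane arm, was at 39.2, 32.6 and 34.6 CPM and then at 39.5, 48.5 and 40.7 CPM. Its lowest knockdown library was barely above its highest control, and library 2 stood apart from the other two (log2 fold change 0.27, SE 0.08, edgeR adjusted p = 0.0137). NDUFS5, an accessory subunit despite its letter, rose by 0.15 (SE 0.05, edgeR adjusted p = 0.0331), from 65.6 ± 2.39 to 72.7 ± 4.35 CPM (SD, n = 3). NDUFB8, another subunit of the distal arm and often used as a protein marker of complex I, rose by 0.32 (SE 0.12, adjusted p = 0.0361). NDUFB8 went from 5.62, 5.59 and 6.46 CPM to 6.65, 8.79 and 6.57 CPM, and 85.1% of its coding bases are shared with other symbols. NDUFB5 rose by 0.13 (edgeR adjusted p = 0.0447). All of these lost the call without knockdown library 2, with edgeR adjusted p values of 0.0687 for NDUFA12, 0.0562 for NDUFB3, 0.159 for NDUFS5, 0.268 for NDUFB8 and 0.146 for NDUFB5. Without control library 2 they lost it as well, at 0.0605, 0.0887, 0.143, 0.149 and 0.0654 in the same order. Without control library 1, NDUFS5 (0.0618) and NDUFB8 (0.107) lost the call, as did NDUFB5 without control library 3 (0.152), knockdown library 1 (0.0686) or knockdown library 3 (0.0612). With the GC and length correction NDUFA12 (0.16), NDUFB3 (0.26), NDUFS5 (0.21) and NDUFB8 (0.40) were still called higher, and NDUFB5 (0.00) was not.

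The accessory genes that fell were NDUFA13, NDUFA11, NDUFB10 and NDUFB7. NDUFA13, also known as GRIM-19, was at 3.39, 3.90 and 3.66 CPM in the controls and at 2.77, 2.94 and 2.42 CPM after knockdown. The groups did not overlap, but the gene rested on 71 to 113 counts per library, and 69.4% of its coding bases are shared with other symbols (log2 fold change -0.43, SE 0.14, adjusted p = 0.0159). NDUFA11, a membrane subunit, had -0.27 (adjusted p = 0.0498), and NDUFB10 and NDUFB7, both of the distal arm, had -0.15 (0.0457) and -0.14 (0.0488). For NDUFA11 and NDUFB10 the 2 groups overlapped. NDUFA13 lost its call without knockdown library 3 (0.0868) or control library 2 (0.0746). NDUFA11 lost its call without knockdown library 2 (0.221), knockdown library 3 (0.122), control library 2 (0.295) or control library 3 (0.0784). NDUFB10 lost it without knockdown library 1 (0.119), knockdown library 3 (0.289), control library 1 (0.0967) or control library 2 (0.146). NDUFB7 kept it only without control library 1, with 0.0794 to 0.221 in the other 5 fits. With the GC and length correction none of the 4 was called lower, at -0.24, -0.08, 0.01 and 0.15 in the order named first. NDUFB7 was then called higher (0.15, adjusted p = 0.0238), so its direction is not settled in these data. NDUFA1, a membrane subunit, passed with that correction alone (0.20, adjusted p = 0.0209, against 0.08 as fitted).

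In complex II, the enzyme shared with the tricarboxylic acid cycle, 1 of 4 genes passed, and the median log2 fold change was 0.02. SDHD, a membrane anchor that forms part of the ubiquinone site, was at 90.5, 92.2 and 90.05 CPM in the controls and at 101, 110 and 101 CPM after knockdown. The controls lay within a narrow band and every knockdown library above it (log2 fold change 0.19, SE 0.05, edgeR adjusted p = 0.00311). SDHD (chr11:112086824-112120016, plus strand) had 0.20 with the GC and length correction (adjusted p = 0.00183). SDHC, the other anchor, did not pass (-0.07, adjusted p = 0.256), nor did SDHB, the iron-sulfur subunit, at 78.2 ± 2.25 and 84.1 ± 0.899 CPM (0.10, 0.0905). SDHA, the flavoprotein that oxidises succinate, had -0.14 (adjusted p = 0.128). Of the coding bases of SDHA, 90.2% are shared with another symbol, and fragments from them were not counted.

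In complex III, which passes electrons from ubiquinol to cytochrome c, 1 of 10 genes rose and 2 fell, with a median log2 fold change of -0.01. CYC1 encodes cytochrome c1, a catalytic subunit that hands the electron to cytochrome c. CYC1 was at 207, 231 and 217 CPM in the controls and at 183, 181 and 192 CPM after knockdown. Every knockdown library was below every control (log2 fold change -0.24, SE 0.05, edgeR adjusted p = 0.000558). UQCRC1, a core protein of the matrix face, was at 169, 179 and 166 CPM and then at 153, 155 and 139 CPM, again without overlap (-0.20, SE 0.05, edgeR adjusted p = 0.00322). UQCRB, a small subunit that contributes to ubiquinone binding, moved the other way, from 128, 124 and 133 CPM to 138, 170 and 150 CPM. Its knockdown libraries were all above the controls and widely spread (0.25, SE 0.06, edgeR adjusted p = 0.00359). With the GC and length correction none of the 3 was called: CYC1 stood at -0.03 (adjusted p = 0.70), UQCRC1 at -0.07 (0.231) and UQCRB at 0.12 (0.241). CYC1 mRNA had a log2 fold change of opposite sign to that of CYCS, its electron acceptor, described below. UQCRFS1, the Rieske iron-sulfur protein and the other nuclear catalytic subunit, had -0.09 (adjusted p = 0.165), and UQCRC2, the second core protein, had 0.01 (0.916).

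In complex IV, where oxygen is reduced, 2 of 12 tested genes rose and none fell, with a median log2 fold change of 0.05. COX7A2L, which is known for joining complexes III and IV into supercomplexes, was at 95.0, 91.9 and 91.9 CPM and then at 101, 106 and 102 CPM. The groups did not overlap (log2 fold change 0.15, SE 0.05, edgeR adjusted p = 0.0176). COX7B, a small subunit needed for assembly, was at 40.3, 37.9 and 40.0 CPM and then at 40.3, 49.0 and 44.1 CPM; its first knockdown library did not stand clear of the controls (0.17, SE 0.06, adjusted p = 0.0367 by edgeR). COX7A2L lost its call without knockdown library 2 (0.061) or control library 2 (0.0557), and COX7B without knockdown library 2 (0.223), knockdown library 3 (0.0557), control library 1 (0.0506) or control library 2 (0.163). Neither was called with the GC and length correction (0.09 for each). COX7A2, the liver-type form of subunit VIIa, missed the threshold (0.17, adjusted p = 0.0518), as did COX4I1, an early assembly subunit (-0.12, 0.0638), and COX8A (-0.11, 0.0898). COX5A (0.02), COX5B (0.06), COX6A1 (0.05), COX6B1 (0.01) and NDUFA4 (0.06) were close to 0.

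The isoforms of complex IV that are known from heart, muscle, lung or testis were at or near 0. COX6A2, COX7B2 and COX8C had 0 counts in every library, COX4I2 0 to 4, COX6B2 2 to 7 and COX7A1 3 to 11. None of the 6 passed the low-count filter. COX8C is also annotated on a further sequence, and all coding bases of COX6B2 and 25.1% of those of COX6A2 are shared with other symbols, so their low counts do not show that these genes were silent. Their ubiquitous counterparts COX4I1, COX6A1, COX6B1, COX7A2, COX7B and COX8A lay between 35.4 and 561 TPM in the controls. TPM is a level scaled by both annotated exon length and library size. Of each pair the ubiquitous isoform was thus the one measured in both groups. UQCRHL, an intronless copy of UQCRH, was at 5.60 TPM against 139 TPM for UQCRH, and neither passed.

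In complex V, which makes ATP, 3 of 17 tested genes rose and 1 fell, with a median log2 fold change of 0.06. ATP5F1A encodes the alpha subunit of the catalytic head. ATP5F1A was at 405, 396 and 417 CPM in the controls and at 368, 352 and 348 CPM after knockdown. The groups stood apart, with means of 406 ± 10.2 and 356 ± 10.9 CPM (SD, n = 3; log2 fold change -0.19, SE 0.05, edgeR adjusted p = 0.00311). ATP5F1A (chr18:46080248-46104334, minus strand) was the only subunit called lower with the GC and length correction (-0.19, adjusted p = 0.00225). Its partner in the head, the catalytic beta subunit ATP5F1B, had -0.01 (adjusted p = 0.91), at 606 ± 7.67 and 602 ± 25.5 CPM. Of the central stalk, ATP5F1C had 0.12 (adjusted p = 0.0612), ATP5F1E 0.03 and ATP5F1D -0.06. ATP5F1D, with the highest GC content of the tested subunits, was called higher with the GC and length correction (0.26, adjusted p = 0.000701).

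The peripheral stalk, which holds the head still against rotation, had 4 tested genes with log2 fold changes from 0.11 to 0.21, of which ATP5PB passed. ATP5PB, the b subunit of that stalk, was at 145, 136 and 154 CPM and then at 163, 170 and 169 CPM. Each knockdown library was above each control (0.21, SE 0.05, edgeR adjusted p = 0.00212), and the correction left 0.17 (0.00645). ATP5PD, ATP5PF and ATP5PO did not pass. The genes of the rotating c ring, ATP5MC1, ATP5MC2 and ATP5MC3, which encode the same mature protein, had -0.00, 0.00 and 0.03, and none passed.

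Of the small membrane subunits of ATP synthase, ATP5MD and ATP5MF rose. ATP5MD, known for its part in ATP synthase dimers, was at 31.2, 28.0 and 29.4 CPM and then at 35.3, 43.6 and 31.8 CPM. The groups did not overlap, but the knockdown libraries differed more among themselves than the lowest differed from the controls (0.32, SE 0.10, edgeR adjusted p = 0.023). ATP5MF, the f subunit, was at 52.4, 49.1 and 48.0 CPM and then at 57.2, 71.4 and 53.2 CPM, with the same order of knockdown libraries (0.28, SE 0.09, adjusted p = 0.0385). ATP5MD lost its call without control library 2 (0.106) or control library 3 (0.112). ATP5MF lost it without knockdown library 2 (0.0614), control library 1 (0.057), control library 2 (0.141) or control library 3 (0.19). Both were called higher with the GC and length correction, ATP5MD at 0.30 (0.046) and ATP5MF at 0.34 (0.0168). ATP5IF1, the inhibitor that blocks ATP hydrolysis, had 1 count in all 6 libraries together and could not be tested.

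**Figure D2:**
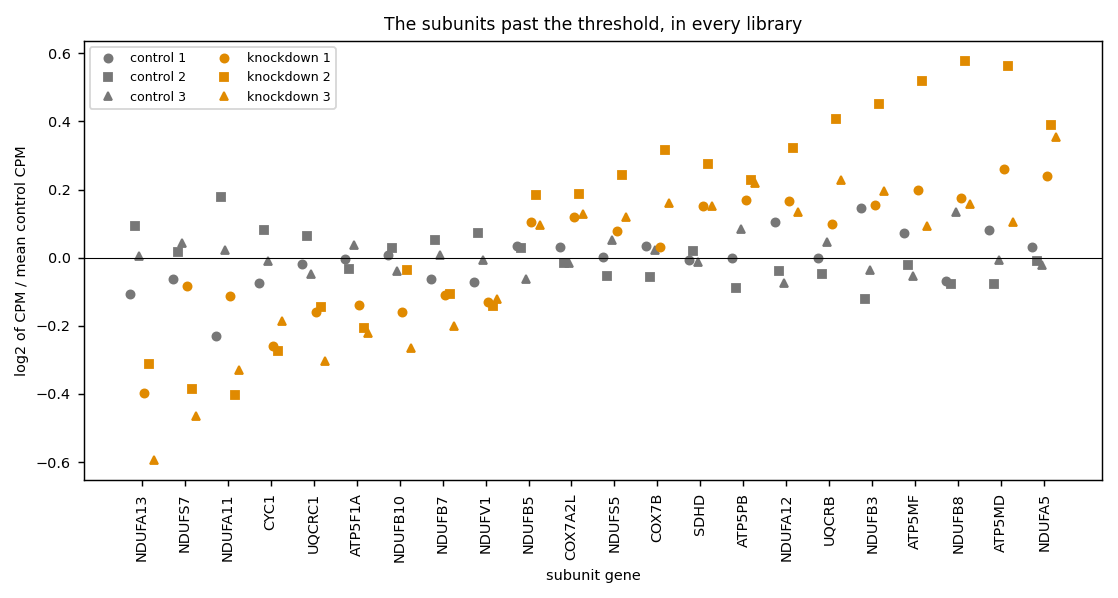
Log2 of CPM over the mean control CPM for the 22 subunit genes past the threshold, in each of the 6 libraries (grey, control; orange, knockdown; the symbol shape gives the library number), ordered by fold change. Knockdown library 2 is the highest point for all 13 genes that rose, and the groups overlap for COX7B, NDUFB10 and NDUFA11.

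Knockdown library 2 stood apart for these genes. It was the highest of the 6 libraries for 47 of the 78 tested subunits (60.3%) and for 16.1% of all genes tested. It lay above the mean of the other 2 knockdown libraries for 64 of the 78, by a median log2 difference of 0.12, while over all genes that median was 0.00. Knockdown library 3 lay above the mean of its 2 partners for 14 of the 78, with a median of -0.10. Without knockdown library 2, 5 subunits rose and 6 fell and 10 of the 22 calls remained. Without control library 2, 4 rose and 3 fell and 7 of the 22 remained. What set these libraries apart was not tested.

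Fold changes fell with GC content both among the subunits and over all genes. Among the 24 tested subunits with under 45% GC, 9 rose and none fell, with a median log2 fold change of 0.11; over all 5692 genes of that class 2174 rose and 384 fell, with a median of 0.14. Between 45% and 55% GC, 4 of 36 subunits rose and 1 fell (median 0.05), while of all 6041 genes of that class 785 rose and 900 fell (median -0.01). At 55% GC or more, none of 18 subunits rose and 8 fell (median -0.12); of 4635 genes in that class 181 rose and 1728 fell (median -0.16). Across the 78 subunits the log2 fold change and GC content had a Spearman rho of -0.60 and a Pearson r of -0.65, and across 16368 genes the values were -0.42 and -0.33; the difference was not tested. All of these fold changes come from the same 6 libraries, and genes are not independent replicates. CYC1, UQCRC1, NDUFS7 and NDUFV1, which fell, all belong to the class of 55% GC or more. After the correction the rho of the subunits with GC content was 0.06, and that with transcript length was -0.43, beside -0.12 before it.

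**Figure D3:**
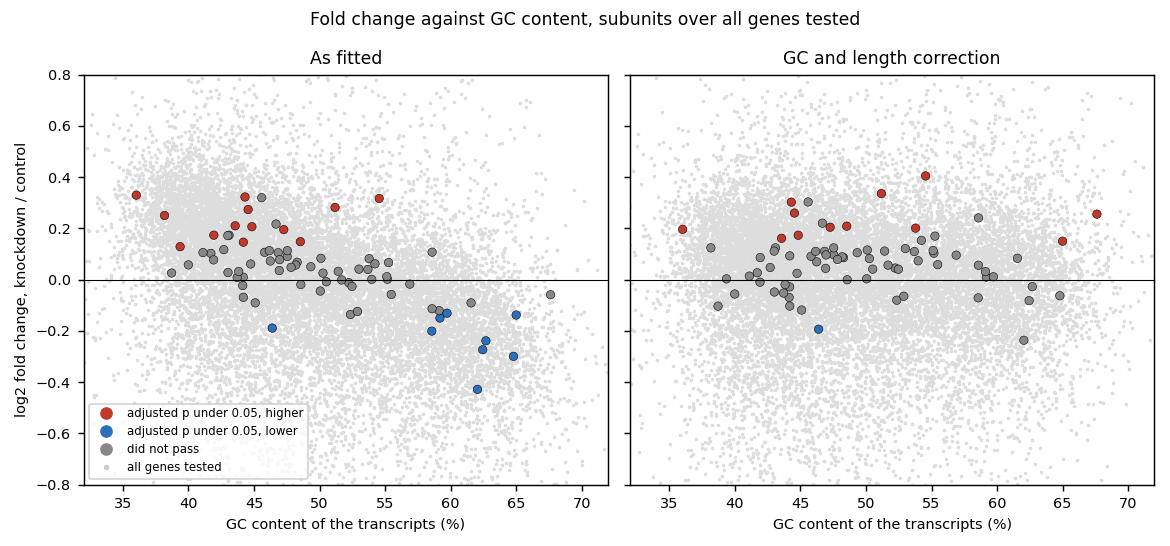
Log2 fold change against the GC content of the transcripts (percent) for the tested subunits (large points, coloured by call) over all genes tested (small grey points), as fitted and after correction; the vertical axis stops at 0.8 in each direction. As fitted, 9 of the 13 genes that rose lie under 45% GC and the other 4 between 45% and 55%. Of the 9 that fell, 8 lie at 55% GC or more. After the correction 12 are called higher and 1 lower.

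The levels of the subunit mRNAs, compared per length as TPM, spread widely within every complex. In the controls the tested genes of complex I ran from 0.935 TPM for NDUFA3 to 325 TPM for NDUFS5, with a median of 38.4 TPM. In complex II they ran from 6.74 TPM for SDHA to 88.7 TPM for SDHD, and in complex III from 5.60 TPM for UQCRHL to 303 TPM for CYC1. Complex IV ran from 35.4 TPM for COX7B to 561 TPM for COX8A. Complex V ran from 10.9 TPM for ATP5ME to 736 TPM for ATP5F1B, the highest of all 88. The subunits of 1 complex were thus measured at levels far from equal, and the levels differed with how much of a gene could be counted. TPM divide by the merged length of all annotated exons, so these levels also depend on that length. ATP5F1A (10908 bases) had 101 TPM at 406 CPM, and ATP5F1B (2238 bases) had 736 TPM at 606 CPM, as control means.

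Fragments that touched the exons of several symbols or aligned in several places were not counted, and the annotation included patches and alternate sequences. Leaving aside 6 tissue isoforms and 2 gene copies, 51 of 80 genes shared no coding base with another symbol and had a median of 79.1 TPM (9.32 to 736). The 10 genes with under 50% of coding bases shared had a median of 37.0 TPM, and the 15 with 50% or more had a median of 14.9 TPM (1.17 to 561). The 4 genes also annotated on a further sequence, NDUFS1, NDUFA6, ATP5IF1 and NDUFA3, lay between 0 and 0.935 TPM. Low values of NDUFS1, NDUFA6 and ATP5IF1 therefore do not show that the genes were silent. Among the tested genes with no shared coding base and 1 sequence, 9 of 52 rose and 6 fell, and among the others 4 of 26 rose and 3 fell. These are 28.8% and 26.9% called, beside 37.2% of all genes tested.

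**Figure D4:**
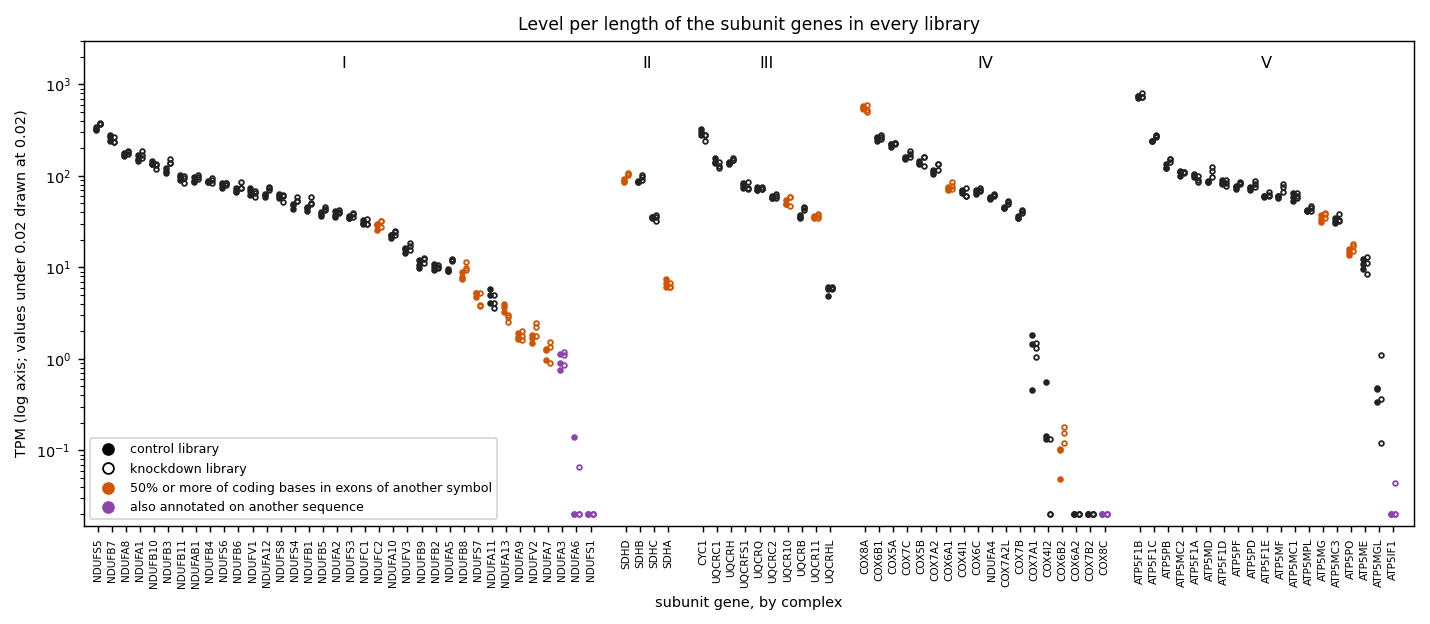
Level of the subunit genes drawn in each library as TPM on a log axis, by complex and ordered by the control mean; filled points are control libraries and open points knockdown libraries, and values under 0.02 are drawn at 0.02. Genes with 50% or more of their coding bases in exons of another symbol (orange) and genes also annotated on another sequence (purple) gather at the low end of complex I.

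Summed over the 88 genes, the subunits held 6908, 7306 and 7042 TPM in the controls and 7763, 7354 and 7188 TPM after knockdown, a ratio of means of 1.05. The groups overlapped. For complex II the sums were 212 to 222 TPM in the controls and 233 to 254 TPM after knockdown, and for complex V 1897 to 1983 TPM and 2022 to 2179 TPM, without overlap in either complex. Summed as CPM, complex II again showed no overlap (368 to 375 and 384 to 393), whereas complex V did, with 2137 to 2160 in the controls and 2142 to 2248 after knockdown. The TPM sums of complexes I, III and IV had knockdown to control ratios of 1.06, 0.974 and 1.04. With 3 libraries against 3, an exact permutation test cannot give a two-sided p under 0.1, and none is given.

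The remaining genes of the pathway are given from lists of its known components. CYCS, the soluble electron carrier between complexes III and IV, rose from 77.2 ± 4.53 to 102 ± 5.16 CPM (SD, n = 3). Its log2 fold change was 0.40 (SE 0.05, adjusted p = 4.26e-06 by edgeR), as fitted a larger rise than that of any nuclear subunit. With the GC and length correction CYCS stood at 0.32, below NDUFB8 (0.40) and ATP5MF (0.34). Of 57 tested assembly factors, 12 rose and 7 fell, with a median log2 fold change of 0.01. That is 33.3% called, beside 37.2% of all genes. Of those of complex I, 4 of 19 rose and 4 fell, and with the GC and length correction 3 rose and 1 fell. NDUFAF4 had 0.41 (adjusted p = 0.000228), and 0.28 with the correction (0.00958). NDUFAF3 had -0.29 (0.00115), and -0.09 with the correction (0.255). Of those of complex IV, 7 of 23 rose (30.4%) and none fell, beside 18.9% and 18.3% of all genes. Those that rose included HIGD1A (0.35), COA7 (0.34), COX10 (0.30), which acts in heme A synthesis, and LRPPRC (0.23), which stabilises mitochondrial mRNAs. With the correction 6 were higher and 2 lower, beside 17% and 11.9% of all genes. SDHAF4 (-0.37) and SDHAF1 (-0.30), which help mature complex II, fell; SDHAF1 lost its call without control library 2 (0.135) or knockdown library 1 (0.0583), and with the correction (-0.06, adjusted p = 0.624). For complex III, LYRM7 (0.26) rose and TTC19 (-0.28) fell, and with the correction LYRM7 was not called (0.12, 0.0894). None of the 5 assembly factors of ATP synthase passed as fitted, and with the correction 1 was called higher.

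Of 18 tested regulators of mitochondrial biogenesis, 5 rose and 4 fell (50% called, beside 37.2% of all genes). With the GC and length correction 4 rose and 2 fell, beside 17% and 11.9% of all genes. PPARGC1A, the coactivator PGC-1alpha, fell from 9.17 ± 0.319 to 6.72 ± 0.231 CPM, by -0.45 in log2 (SE 0.09, adjusted p = 0.000473). TFAM, which packages and transcribes mitochondrial DNA, rose from 92.7 ± 3.89 to 115 ± 1.49 CPM (0.31, SE 0.05, edgeR adjusted p = 2.64e-05). ESRRA, a nuclear receptor that works with PGC-1alpha, had -0.32 (0.000583), and -0.08 with the GC and length correction (0.319). The factors whose letters were searched in the promoters did not pass: NRF1 had -0.05 (adjusted p = 0.638), GABPA 0.12 (0.167) and YY1 0.04 (0.522). In the tricarboxylic acid cycle 2 of 14 genes rose, SUCLG1 (0.22) among them, and 1 fell (21.4% called, beside 37.2% of all genes). With the GC and length correction 1 gene of that list was higher and 2 were lower.

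The subunits encoded in mitochondrial DNA, the partners of the nuclear genes in complexes I, III, IV and V, moved in 1 direction where they passed. Of 13 genes none rose and 5 fell (38.5%), while of all genes 18.9% rose and 18.3% fell (37.2% together). The median log2 fold change was -0.23, against 0.04 for the nuclear genes. The 13 genes ranged from -1.12 to 0.35, and the genes at both ends of that range did not pass. MT-ND5 was at 4126, 3776 and 4391 CPM in the controls and at 2761, 2861 and 3372 CPM after knockdown (-0.45, SE 0.07, adjusted p = 6.94e-05 by edgeR), and MT-ND4 had -0.32 (0.00289). The others were MT-ND2 (-0.35), MT-ND1 (-0.28) and MT-CYB (-0.23). With the GC and length correction 5 of 13 again fell. DESeq2 did not call MT-ND2 (adjusted p = 0.0653) or MT-ND1 (0.0858). MT-CYB lost its call without knockdown library 1 (0.114) or control library 1 (0.0627), and MT-ND1 without knockdown library 1 (0.0805) or control library 3 (0.0531). Together, all symbols beginning MT-, and not only the 13 subunit genes, took 13.7% to 15.1% of counts in the controls. After knockdown they took 12.02% to 14.6%, so the shares overlapped. The difference between the nuclear and mitochondrial groups of genes was not tested.

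**Figure D5:**
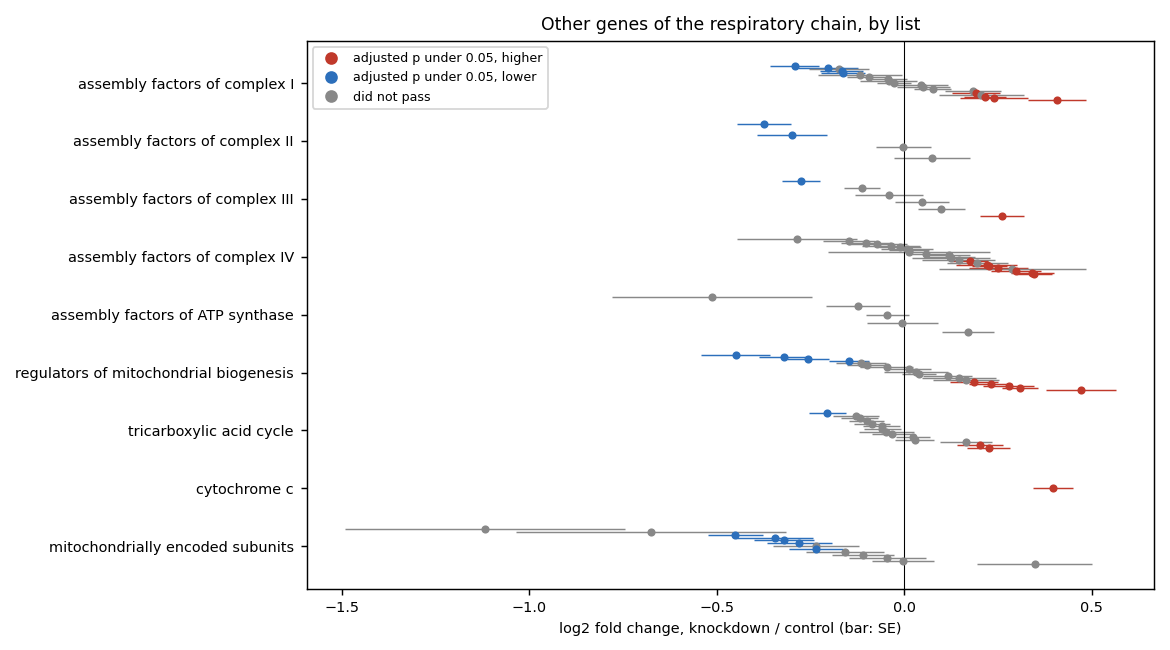
Log2 fold change (knockdown over control) with its standard error for the other genes of the respiratory chain, by list; coloured points passed an adjusted p of 0.05. All 7 called assembly factors of complex IV lie above 0 and all 5 called mitochondrially encoded subunits below 0, while the other lists with several calls hold both directions, apart from the assembly factors of complex II with 2 lower. Of all genes tested, 18.9% rose and 18.3% fell.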

How the data were processed

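The deposited table holds whole counts of read pairs per gene symbol, not normalized and not estimated counts; per the file headers the authors made it with featureCounts 1.6.4 over the exons of GENCODE release 32 on GRCh38, with neither a strand option nor options for multi-mapped or multi-overlapping reads, which at its defaults leaves such reads out and ignores strand. The submitters' processing notes list STAR 2.7.1a and Trim Galore 0.6.4. Knockdown libraries are numbered as in their titles; control columns carry no number that ties them to a sample and are numbered in column order. Genes were filtered with filterByExpr and tested with edgeR 4.0.16 (TMM factors, robust quasi-likelihood test, R 4.3.3), with Benjamini-Hochberg adjustment over 16633 genes and a threshold of 0.05; every adjusted p is from that test unless another fit is named. CPM of subunits are scaled by TMM, marker CPM by total counts, and TPM use exon length. The GC and length correction used splines with 5 degrees of freedom per library, with GC content from GENCODE release 29. DESeq2 1.42.0 was an alternative. The script was tested on simulated counts. The members and lists were chosen with earlier results of these data known. Members were named by role, by complex (up to 8 called genes), as isoforms and as the highest and lowest level; NDUFB5, NDUFB7, NDUFB10, NDUFA11, NDUFA1 and other members outside that rule were named after their values were seen. A subunit gene and a gene of another list are not reported here by name; they stay in the fits and counts, and the labelled plots leave the subunit out.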

Additional observations from a re-analysis of the deposited data

How the results depend on the processing

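The main counts were 13 subunits higher and 9 lower. Lower calls went to 4 with DESeq2, 1 with the GC and length correction, 5 with a length correction alone and 5 with no low-count filter; higher calls went to 22 with the length correction. With each library left out in turn, higher calls ran from 4 to 15 and lower calls from 3 to 9. Calls per complex ran from 1 to 10 in complex I, 0 to 3 in complex IV and 2 to 5 in complex V, against 12, 2 and 4. DESeq2 gave 4 in complex I and 1 in complex IV; the GC and length correction gave 7 in complex I and 0 in complexes III and IV; the length correction gave 2 in complex II and 7 in complex V. Against a fold change of 1.2, all counts were 0. The median log2 fold change moved to 0.10 in complex I and 0.0455 in complex II with the length correction and to 0.0391 in complex II with no filter. Leaving out 1 library gave -0.00705 to 0.0603 in complex I and -0.00149 to 0.0407 in complex II. Of the subunits called as fitted or with the GC and length correction, that correction turned the sign of ATP5F1D (0.26), NDUFB7 (0.15), NDUFB10 (0.0096) and NDUFV1 (0.0108). Some subunits called in neither fit also changed sign, among them NDUFS8 (-0.09 to 0.08), COX8A (-0.11 to 0.06) and NDUFA4 (0.06 to -0.06). RLE factors and a filter of 1 CPM left all the counts above within 1.5 times. No paired analysis was possible because the control columns carry no number that ties them to a control sample, so the replicate block was not run. Depth limits NDUFA3, NDUFA7 and NDUFV2, with under 70 counts per library.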
